A study of Mus musculus with 6 samples.

Results

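A set of 7 genes that mark or drive the neural lineage was read on 6 arrays of mouse embryonic stem cells: Sox1, Six3, Nkx2-2, Insm1, Skor1, Pax6 and Nes. They are 7 of the 19306 genes that had a measurable probe. Every probe that the array annotation names for one of them, or for an older synonym (Lbxcor1 for Skor1), was taken, which gave 10 of 41174 probes. The genes were chosen by their processed signal on these same arrays, already known when the set was proposed, so their levels and differences are a description, and no p-value is given for them. Skor1, Insm1 and Nkx2-2 were higher on every array of both knockdowns than on either control array, by 2.55 to 6.70 times on average. Six3 was well above background only after Thoc2 knockdown, by its brighter probe. Sox1, Pax6 and Nes differed from the controls by less, or the arrays of a group disagreed.

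The neural plate arises from epiblast cells that lose pluripotency, and transcription factors then divide it along the head-to-tail and back-to-belly axes. Sox1 is among the earliest factors restricted to the neural plate, Six3 and Pax6 act in the forebrain and eye, and Nkx2-2 reads the Hedgehog signal in the ventral neural tube. Insm1 is a zinc-finger factor of neuronal progenitors and neuroendocrine cells, Skor1 is a corepressor known from dorsal spinal cord interneurons, and Nes encodes nestin, an intermediate filament protein of neural progenitors. Mouse embryonic stem cells keep most of these genes low, and several of them sit in chromatin held silent by Polycomb complexes.

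The cells were J1, a mouse embryonic stem cell line, grown in ESGRO medium and transfected in M10 medium. Each of 3 groups had 2 arrays of total RNA, taken 96 hours after transfection with siRNA that was non-targeting (NT), aimed at Thoc2 or aimed at Thoc5. Both targets are subunits of the THO complex, which binds new mRNA and helps to hand it to the nuclear export machinery. The total RNA measured includes mRNA of the nucleus and of the cytoplasm. All groups share the cell line, the medium and the transfection, and the labels do not say whether the 2 replicates of a group were separate cultures, so errors measure the spread between arrays, which may be technical. Whether a higher signal came from more cells of a type or from more mRNA per cell cannot be told apart in such bulk RNA.

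The arrays held 43379 spots each that were not controls, of which 56.7% to 79.7% were well above background. Their 75th percentile signal lay between 306 and 905, and Thoc5 replicate 1 was the dimmest. Thoc2 replicate 1 had 880 outlier spots against 63 to 155 on the others. Replicates correlated at 0.965 to 0.976 over genes, and arrays of different groups at 0.954 to 0.975. NT replicate 1 shared a slide with Thoc2 replicate 2, and NT replicate 2 shared one with Thoc5 replicate 2, while the other 2 arrays had slides of their own. Thoc2 mRNA stood at 55.0% of its NT level with its own siRNA (log2 difference -0.86 ± 0.28, SE, limma adjusted p = 0.302) and Thoc5 mRNA at 41.4% (-1.27 ± 0.27, adjusted p = 0.129), so neither target passed the test over all genes. All 10 embryonic stem cell markers that were looked up, among them Pou5f1 and Nanog, were well above background on all 6 arrays.

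The probes are shown because the answer for Six3 and Pax6 differed between their probes. The reason for that was not tested. Each is a 60-base probe printed 5′ to 3′, at the position that the file headers give in mouse build mm7. The 4 probes printed whole are Sox1 (chr8:12371212-12371271, plus strand), the Six3 probe A_52_P675229 (chr17:83919650-83919709, plus) and the Pax6 probes A_52_P469306 (chr2:105534728-105535579, plus) and A_52_P565559 (chr2:105546221-105547093, plus). These 2 Pax6 probes span 852 and 873 bases of the genome with 60 bases of sequence, so each joins separate exons.
Sox1 A_51_P176337: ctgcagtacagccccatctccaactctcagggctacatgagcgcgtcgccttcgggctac
Six3 A_52_P675229: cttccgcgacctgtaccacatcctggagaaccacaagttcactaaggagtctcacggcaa
Pax6 A_52_P469306: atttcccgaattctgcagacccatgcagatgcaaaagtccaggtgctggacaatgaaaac
Pax6 A_52_P565559: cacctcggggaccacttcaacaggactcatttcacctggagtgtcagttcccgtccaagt

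Of the remaining probes the first 30 bases identify what was read. They lie at chr17:83920182-83920241 (plus strand, Six3), chr2:146924275-146924333 (minus, Nkx2-2), chr2:145965126-145965185 (plus, Insm1), chr9:63166551-63166610 (minus, Skor1), chr2:105547907-105547966 (plus, Pax6) and chr3:88094187-88094246 (plus, Nes), again in mm7. The Pax6 probe A_51_P489935 lies downstream of the other 2 on the plus strand, and the Six3 probe A_51_P187561 lies downstream of A_52_P675229. Exons are not assigned to probes here. Pax6 A_52_P565559 and the Nes probe were spotted 10 times on each array, and every other probe once.
Six3 A_51_P187561: ctggaacagggaacaactggctgtgggttt
Nkx2-2 A_51_P197718: tacacgttctgacaactggtggcaaatttc
Insm1 A_51_P140887: aatgcctttatatttcacaggctgtaaatt
Skor1 A_51_P242643: gagatggcgaccatcttgagcctatttggg
Pax6 A_51_P489935: tctttcttggccagcaaaagttaattgttc
Nes A_51_P452323: atctcagcctgctgagatcttgtttctctc

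A level below is the log2 of the processed signal of a probe minus the log2 of the 75th percentile of its array. Probes differ in how strongly they bind, so levels of single probes are not ranked against each other as expression; summed signals of marker lists, given further on, add probes and are compared between arrays only. A difference is the mean of 2 arrays minus the mean of 2 arrays, with the SE of a limma fit to all genes. In that fit 0 of 19305 genes (0%) passed an adjusted p of 0.05 for Thoc2 siRNA against NT and 0 of 19306 (0%) for Thoc5 siRNA against NT, while 14.6% and 19.6% had an unadjusted p under 0.05. When limma's variances were fitted with a trend over intensity and robustly, 1 gene passed as higher (0.00518%) and 3 as lower (0.0155%) for Thoc2 siRNA, and 256 (1.33%) and 404 (2.09%) for Thoc5 siRNA. The SE of a gene rests on 3 residual degrees of freedom.

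Counted by overlap, 4 of the 7 genes lay higher on both Thoc2 siRNA arrays than on both NT arrays (Six3, Nkx2-2, Insm1 and Skor1), beside 26.1% of all genes. Pax6, by the probe that stands for the gene, lay lower, beside 20.9% of all genes, and Sox1 and Nes overlapped. With Thoc5 siRNA 4 lay higher (Nkx2-2, Insm1, Skor1 and Nes), beside 21.7% of all genes. Six3 lay lower, beside 31.2% of all genes, but neither group was well above background, so the order of those values is not read. Since these contrasts chose the genes, the counts are given with the background and nothing is read from them.

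**Figure D1:**
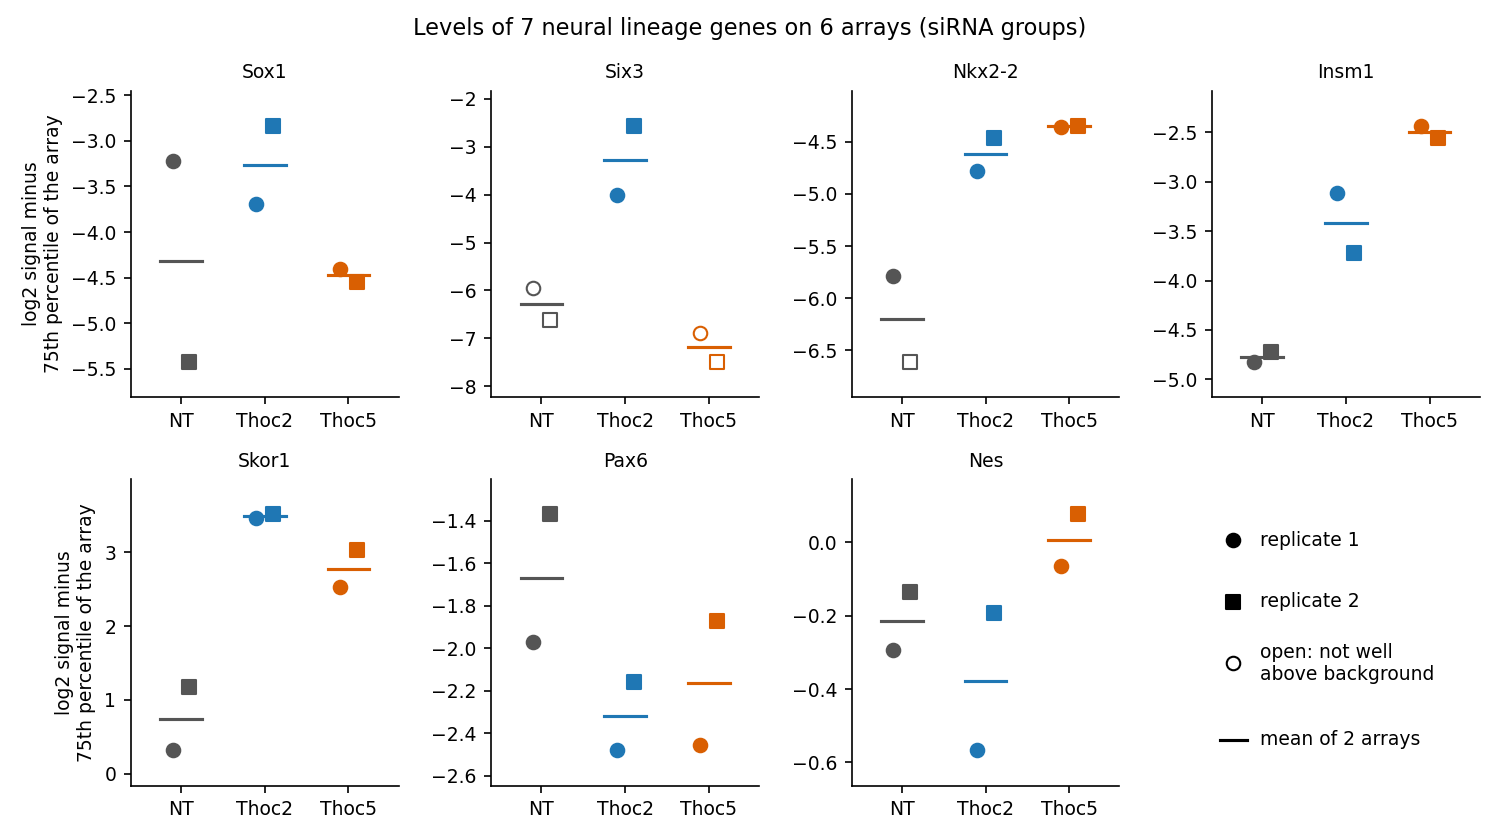
Level of each gene (y axis, log2 signal minus the 75th percentile of the array, its own scale in each panel) on each array by siRNA group (x axis), for the probe that stands for the gene; circles are replicate 1, squares replicate 2, bars the mean of 2 arrays, and open symbols are not well above background. Insm1 and Skor1 separate all 3 groups, Nkx2-2 separates NT from both knockdowns by more than 1, and the 2 NT arrays of Sox1 lie 2.20 apart.

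Sox1, the early neural plate factor, was well above background on all 6 arrays. Its levels were -3.22 and -5.42 on the NT arrays (replicates 1 and 2), -3.69 and -2.84 on the Thoc2 arrays, and -4.40 and -4.55 on the Thoc5 arrays. The NT arrays lay on either side of both knockdown groups, except that Thoc2 replicate 2 was above them both. The mean difference was 1.06 ± 0.80 for Thoc2 siRNA and -0.15 ± 0.80 for Thoc5 siRNA. Without NT replicate 2 the first became -0.04 and the second -1.25, and without NT replicate 1 they became 2.16 and 0.95, so 1 control array set the sign of each. On the shared slides the difference was 0.38 for Thoc2 siRNA and 0.87 for Thoc5 siRNA. Sox1 was lower on both Thoc5 than on both Thoc2 arrays, by -1.21 ± 0.80, which does not rest on the NT arrays.

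The summed signal of the primitive endoderm markers also split the NT arrays: relative to the 75th percentile it was 8.93 on replicate 1 and 1.20 on replicate 2. It was 3.08 and 3.35 on the Thoc2 arrays, and 10.5 and 2.83 on the Thoc5 arrays. All 8 kept markers of that list (of 10) were well above background on all arrays. Of the 8, 5 lay above NT with Thoc2 siRNA (median 0.26) and 6 with Thoc5 siRNA (median 0.73), beside medians of 0.06 and -0.09 over all genes, and 0 stood apart from NT without overlap in either comparison. Sox17 and Gata6, transcription factors of that layer named after their values were seen, were at 1.59 ± 1.36 and 1.40 ± 1.23 with Thoc5 siRNA (limma adjusted p = 0.596 and 0.604). The Thoc5 arrays of Sox1 lay 0.14 apart. The part of these cells in the Sox1 split was not tested.

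Six3, the forebrain and eye field factor, was read by 2 probes. On A_51_P187561 its levels were -5.94 and -6.62 on the NT arrays, -4.01 and -2.57 on the Thoc2 arrays, and -6.89 and -7.49 on the Thoc5 arrays. Only the Thoc2 arrays were well above background, so the probe was kept through that group alone and the folds are bounds. A bound sets the mean of the bright group against the level of the dim group, raised on each array to the lowest level there that counted as well above background. On the Thoc2 arrays Six3 was at least 6.95-fold above the NT arrays, and at least 5.27-fold lower with Thoc5 siRNA than with Thoc2 siRNA. With only Thoc2 replicate 1 or only replicate 2 as the bright array the first bound was 4.22-fold or 11.4-fold, and the second 3.20-fold or 8.69-fold. With only Thoc5 replicate 1, the dimmest array, as the dim array the second bound was 2.54-fold, and with only replicate 2 it was 10.95-fold. The measured difference for Thoc2 siRNA was 2.99 ± 0.58, with 3.37 within the slide. With normexp background correction it was 1.98, and that between Thoc5 and Thoc2 siRNA was -0.92, both on the log2 scale and both smaller than the bounds given. Between Thoc5 and NT siRNA no fold is given, since both were below background.

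The second Six3 probe, A_52_P675229, gave levels of -7.74 and -6.06 on the NT arrays, -5.03 and -4.62 on the Thoc2 arrays, and -5.89 and -4.98 on the Thoc5 arrays. It was well above background on both Thoc2 arrays and on Thoc5 replicate 2, and on neither NT array. Six3 was at least 2.46-fold higher with Thoc2 than with NT siRNA by this probe (within-slide difference 3.12). Both probes thus put the Thoc2 arrays above the NT arrays, while with Thoc5 siRNA 1 of 2 arrays was well above background by this probe and 0 by the first. Thoc5 replicate 2, at -4.98, lay between the Thoc2 arrays by this probe.

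**Figure D2:**
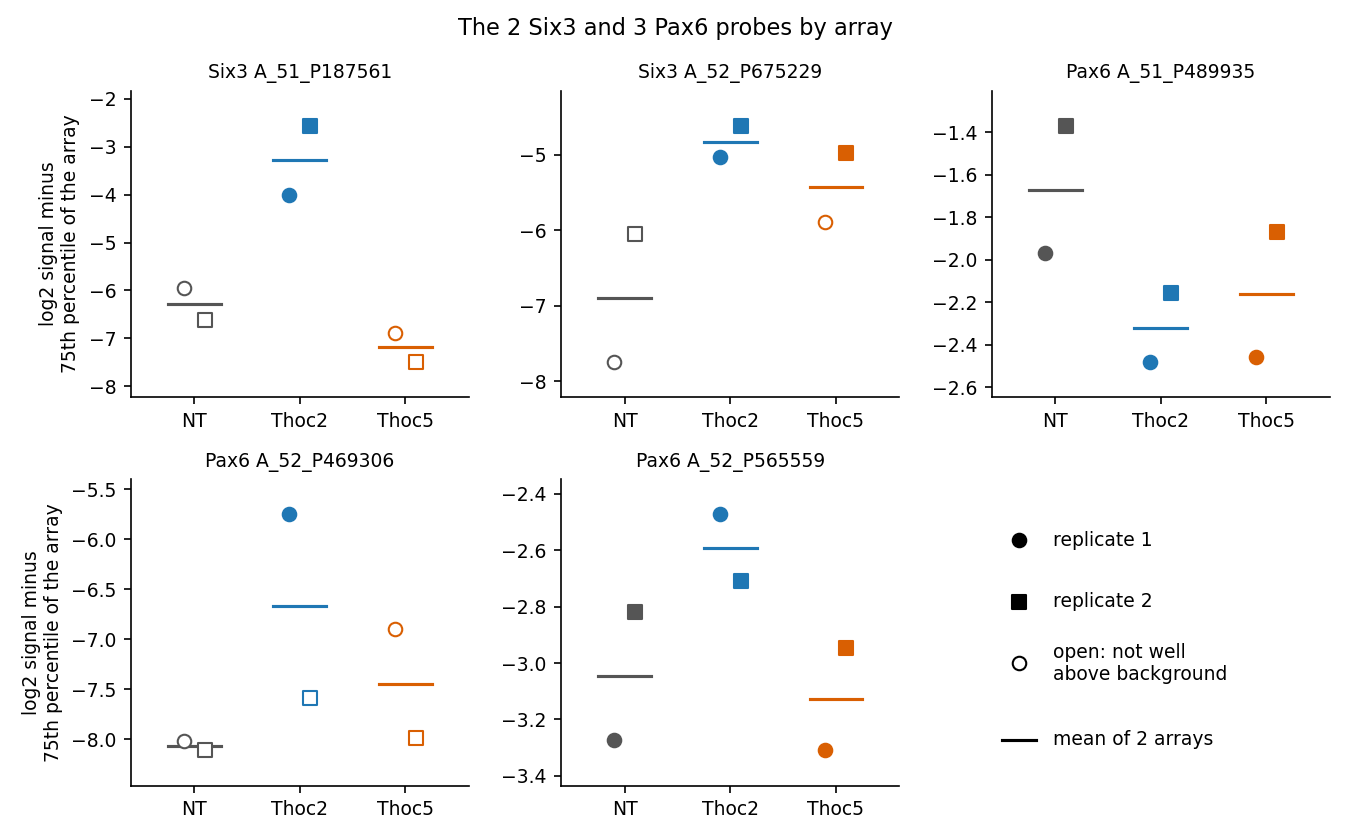
Level of each probe of Six3 (2 probes) and Pax6 (3 probes) by siRNA group, drawn as log2 signal minus the 75th percentile of the array with its own scale in each panel; circles are replicate 1, squares replicate 2, bars the mean, and open symbols are not well above background. Both Six3 probes are filled on the Thoc2 arrays and open on the NT arrays, and only the second has a filled Thoc5 array. For Pax6 the Thoc2 mean is lowest on A_51_P489935, where the Thoc2 and Thoc5 arrays overlap, and both Thoc2 arrays are highest on A_52_P565559.

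Nkx2-2, the ventral neural tube factor, had levels of -5.78 and -6.61 on the NT arrays, -4.78 and -4.46 on the Thoc2 arrays, and -4.36 and -4.35 on the Thoc5 arrays. NT replicate 2 was not well above background, NT replicate 1 was, and the lowest level that was so on those arrays was -6.23 and -6.196. All knockdown arrays were above both NT arrays, with a gap of at least 1.01 on the log2 scale. The mean difference was 1.58 ± 0.32 (2.98-fold) for Thoc2 siRNA and 1.84 ± 0.32 (3.59-fold) for Thoc5 siRNA, and within slides it was 1.32 and 2.26. Both folds rest in part on the NT array that was not well above background, and the probe was kept through the knockdown arrays alone. For Thoc2 siRNA the difference was 0.842 with quantile normalization and 0.776 in the authors' series table. Thoc5 siRNA lay above Thoc2 siRNA by 0.27 ± 0.32, with no overlap of arrays, and that difference moved with the scaling: it was 0.95 with quantile normalization, 1.02 in the authors' series table, 0.63 with cyclic loess, 0.66 with array medians and -0.07 with normexp. On Thoc5 replicate 1, the dimmest array, the level of -4.36 stood close to the lowest level well above background there, -4.64.

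Insm1, the zinc-finger factor of neuronal progenitors and endocrine cells, was well above background on all 6 arrays. Its levels were -4.82 and -4.72 on the NT arrays, -3.12 and -3.72 on the Thoc2 arrays, and -2.43 and -2.55 on the Thoc5 arrays. The groups stood in the order NT, Thoc2, Thoc5 with no overlap. The difference from NT was 1.35 ± 0.24 (2.55-fold) for Thoc2 siRNA and 2.28 ± 0.24 (4.85-fold) for Thoc5 siRNA, with 1.10 and 2.17 on the shared slides. Thoc5 siRNA lay 0.92 ± 0.24 above Thoc2 siRNA (1.90-fold). That direct difference moved with the settings, from 0.418 with normexp to 1.31 with array medians, and was above 0 in all 17. The difference from NT ranged over all other settings from 0.999 to 1.65 for Thoc2 siRNA and from 1.71 to 2.38 for Thoc5 siRNA.

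Insm1 and Nkx2-2 also act in endocrine cells of the pancreas, so 12 genes of those cells were looked up. Of these 10 had a kept probe, and Ins1 and Pax4 did not. Their summed signal relative to the 75th percentile was 4.60 and 4.25 on the NT arrays, 4.37 and 5.15 on the Thoc2 arrays, and 4.59 and 4.51 on the Thoc5 arrays, so the groups overlapped. Of the 10, 6 lay above NT with Thoc2 siRNA, 2 higher and 0 lower without overlap, beside 26.1% and 20.9% of all genes. With Thoc5 siRNA 5 lay above NT, with 2 higher and 3 lower, beside 21.7% and 31.2%. Isl1, a factor that endocrine cells share with motor neurons and that is named after its values were seen, was at 1.03 ± 0.34 and 0.84 ± 0.34 with no overlap in either comparison (limma adjusted p = 0.303 and 0.277), with 1 of 2 Thoc5 arrays well above background. Chga, a secretory granule protein, carries most of the summed signal. It lay 0.04 ± 0.14 above NT with Thoc2 siRNA and 0.11 ± 0.14 above it with Thoc5 siRNA (limma adjusted p = 0.906 and 0.737).

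Skor1, the corepressor that binds Lbx1, was well above background on all 6 arrays. Its levels were 0.32 and 1.18 on the NT arrays, 3.47 and 3.51 on the Thoc2 arrays, and 2.52 and 3.03 on the Thoc5 arrays. The order was NT, Thoc5, Thoc2 without overlap. The difference from NT was 2.74 ± 0.36 (6.70-fold) for Thoc2 siRNA and 2.03 ± 0.36 (4.08-fold) for Thoc5 siRNA, and it was 3.19 and 1.85 within slides. Thoc5 siRNA stood at 60.9% of Thoc2 siRNA (-0.71 ± 0.36). Leaving out 1 array gave 2.31 to 3.17 for Thoc2 siRNA and 1.60 to 2.46 for Thoc5 siRNA. Lbx1, the dorsal interneuron factor that Skor1 partners, had levels of -4.37 and -3.42 on the NT arrays, -4.997 and -4.56 on the Thoc2 arrays, and -4.48 and -2.91 on the Thoc5 arrays. Its Thoc2 arrays lay below both NT arrays and its Thoc5 arrays on either side of them.

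**Figure D3:**
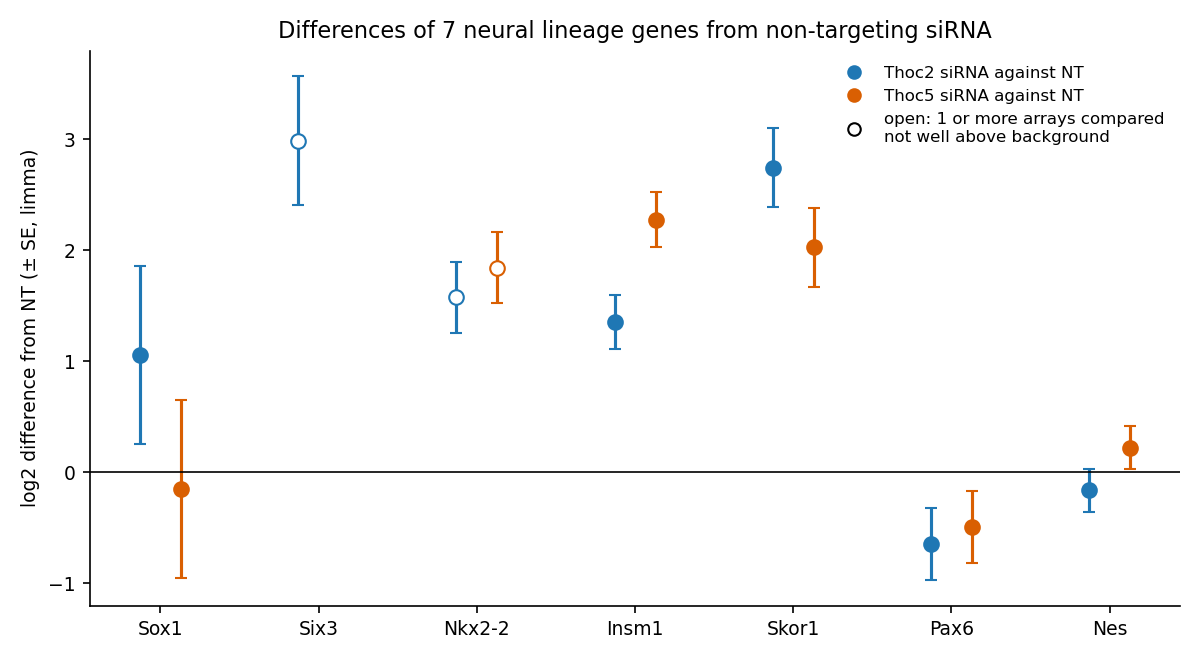
Log2 difference from NT (y axis, points with SE of the limma fit, n = 2 arrays per group) for each gene (x axis) with Thoc2 siRNA (blue) and Thoc5 siRNA (orange); open points include an array not well above background. Skor1, Insm1 and Nkx2-2 lie above 0 by more than 1 in both comparisons, Six3 at 2.99 in the first, and Pax6 and Nes within 1 of 0. Six3 has no Thoc5 point, since all 4 arrays compared were not well above background.

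Pax6, the eye and forebrain factor, had 3 probes that differed in their order of the groups. On the downstream probe A_51_P489935 its levels were -1.97 and -1.37 on the NT arrays, -2.48 and -2.16 on the Thoc2 arrays, and -2.46 and -1.87 on the Thoc5 arrays. Both Thoc2 arrays were below both NT arrays, by -0.65 ± 0.33 on average, and the Thoc5 arrays overlapped NT (-0.49 ± 0.33). Within slides the differences were -0.19 and -0.50.

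On A_52_P565559 the levels of Pax6 were -3.27 and -2.82 on the NT arrays, -2.47 and -2.71 on the Thoc2 arrays, and -3.31 and -2.95 on the Thoc5 arrays. Here the Thoc2 arrays were above both NT arrays, by 0.45, and the Thoc5 arrays overlapped NT at -0.08. Within slides these were 0.56 and -0.13. The SD over the repeated spots of this probe was 0.0736 to 0.356 on an array, the highest on NT replicate 1. That SD describes single spots and not the spread between arrays. Between the 2 arrays of a group the SD was 0.32 for NT, 0.17 for Thoc2 and 0.26 for Thoc5 siRNA. Of the third probe, A_52_P469306, only Thoc2 replicate 1 was well above background, at -5.75, and the other 5 arrays lay between -8.11 and -6.89. It was not kept.

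Nes, the nestin gene, had the smallest range over the 6 arrays of the 7 genes, 0.643. Its levels were -0.29 and -0.13 on the NT arrays, -0.57 and -0.19 on the Thoc2 arrays, and -0.07 and 0.08 on the Thoc5 arrays. The Thoc2 arrays overlapped NT, and the Thoc5 arrays were above both, by a gap of 0.0695. The mean difference was -0.17 ± 0.19 for Thoc2 siRNA and 0.22 ± 0.19 for Thoc5 siRNA, with 0.10 and 0.21 within slides. The SD over the repeated spots was 0.0290 to 0.211 on an array, and the SD between the 2 arrays of a group was 0.0998 to 0.266.

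Set directly against each other, Thoc5 siRNA stood above Thoc2 siRNA without overlap for 3 genes (Nkx2-2, Insm1 and Nes), beside 13.2% of all genes. It stood below for 3 (Sox1, Six3 and Skor1), beside 32.6% of all genes, and Pax6 overlapped. Six3 is counted here by A_51_P187561, a probe kept through the Thoc2 arrays alone, so its place in the count is no support. By the other Six3 probe, A_52_P675229, the 2 groups overlapped, with a mean difference of -0.61. In that comparison 0 of 19305 genes (0%) passed the adjusted p, and 9.19% had an unadjusted p under 0.05. The Six3 difference is a bound, Insm1 was at 0.92 ± 0.24, and Pax6 was at 0.16 ± 0.33. The knockdowns share the NT arrays, so the likeness of their differences from NT is not counted as a result.

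**Figure D4:**
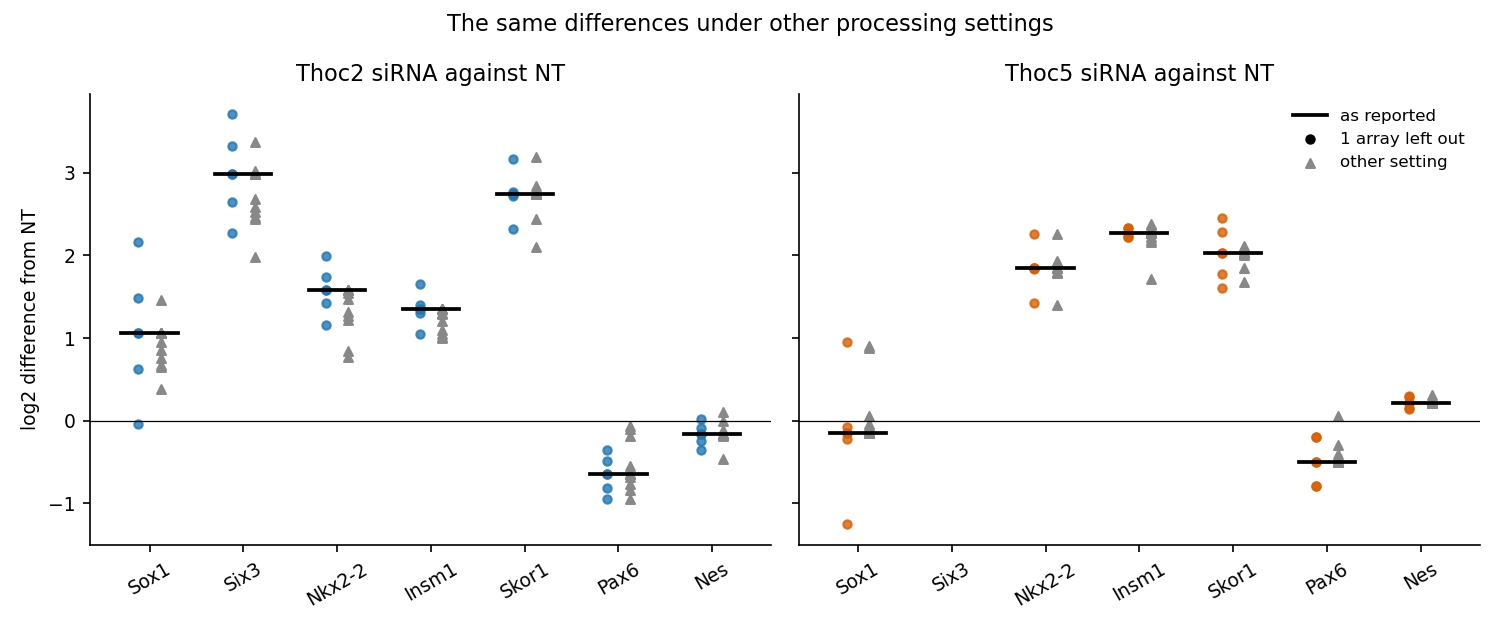
Log2 difference from NT (y axis) for each gene (x axis) as reported (black bar), with 1 array left out (dots) and under each other setting of scaling, background, filter, block or probe (triangles), in the panels for Thoc2 siRNA and Thoc5 siRNA. Skor1, Insm1 and Nkx2-2 stay above 0 throughout both panels, and Six3 does in the Thoc2 panel, while Sox1 crosses 0 in both; Six3 is left out of the Thoc5 panel, where neither group was well above background.

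RefSeq promoters of build GRCm38.p6, 250 bases before to 50 after a start, were held for 6 of the 7 genes, 9 windows in all. CpG, the dinucleotide whose density marks many promoters of developmental genes, was counted as CG, which reads the same on both strands. The 9 windows held 14 to 46 CG, against a median of 7 (quartiles 3 and 20) over 32851 promoters, and 2 of the 9 were above the upper quartile. The outermost Skor1 window had 46, a number that 1.65% of all promoters reach, and 36 of these CG lay before the start. The other 2 Skor1 windows had 15 and 17, which 34.6% and 31.4% reach. The Nkx2-2 window had 17, which 31.4% reach, and 8 of these CG lay before the start. The counts describe the letters only. The 250 bases before the start are printed for the outermost Skor1 window and for Nkx2-2, since these genes were higher with both siRNAs. Each CG is in capitals, for Skor1 at chr9:63148962-63149211 and for Nkx2-2 at chr2:147186403-147186652 (minus strand both, GRCm38.p6).
Skor1: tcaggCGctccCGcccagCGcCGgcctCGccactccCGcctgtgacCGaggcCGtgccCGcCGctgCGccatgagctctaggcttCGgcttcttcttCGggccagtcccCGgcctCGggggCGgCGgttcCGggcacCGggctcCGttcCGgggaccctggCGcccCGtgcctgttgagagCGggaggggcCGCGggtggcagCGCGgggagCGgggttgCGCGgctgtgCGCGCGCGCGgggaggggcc
Nkx2-2: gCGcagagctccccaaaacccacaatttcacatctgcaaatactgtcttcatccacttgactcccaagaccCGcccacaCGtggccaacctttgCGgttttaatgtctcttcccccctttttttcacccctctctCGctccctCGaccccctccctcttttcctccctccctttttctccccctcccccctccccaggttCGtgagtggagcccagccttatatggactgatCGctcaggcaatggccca

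To see whether neighbouring genes of the lineage moved alike, 93 other neural genes in 5 lists were read in the same fit. Of these 69 had a kept probe. With Thoc2 siRNA 51 of the 69 lay above NT, with a median difference of 0.40 where that of all genes was 0.06, and 25 lay higher and 10 lower without overlap (36.2% and 14.5%, beside 26.1% and 20.9% of all genes). With Thoc5 siRNA 34 of 69 lay above NT, with a median of -0.03 against -0.09, and 15 lay higher and 18 lower (21.7% and 26.1%, beside 21.7% and 31.2%). With each array centred on its median instead, which put the median of all genes at -0.24 for Thoc2 siRNA, 39 of the 69 lay above NT, and their median was 0.0951. None of the 69 passed the adjusted p in either comparison. With trend and robust variances none passed for Thoc2 siRNA, while for Thoc5 siRNA 2 rose and 1 fell, beside 1.33% and 2.09% of all genes. A gene kept only through a bright knockdown group had to differ, and 47 of the 69 were well above background on all 6 arrays. With that filter on every gene the median for Thoc2 siRNA was 0.28, beside 0.0174 over all genes.

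The 10 kept forebrain and eye field genes had the largest median of the 5 lists with Thoc2 siRNA, 1.01, and 7 lay higher and 2 lower than NT without overlap, beside 26.1% and 20.9% of all genes. Only 6 of the 10 were well above background on all 6 arrays, and some, such as Emx2 (on 0 NT arrays) and Vax1 (on 1), were kept through the Thoc2 arrays alone, so these had to be high there and the median and count are no support. Rax, a homeobox gene of the eye field, stood at -5.45 and -5.76 on the NT arrays, -3.07 and -4.60 on the Thoc2 arrays, and -5.91 and -6.61 on the Thoc5 arrays, where it was not well above background. Its difference was 1.77 ± 0.59 for Thoc2 siRNA (limma adjusted p = 0.304), and it was at least 3.45-fold lower with Thoc5 than with Thoc2 siRNA. Otx2, a factor of the epiblast and of the forebrain, had the lowest difference of the list with both, -0.55 ± 0.17 and -1.03 ± 0.17 (adjusted p = 0.280 and 0.106). Emx1, of the dorsal forebrain, was at 1.00 ± 0.41 and 1.66 ± 0.41 (adjusted p = 0.371 and 0.151). With Thoc5 siRNA the list's median was 0.16, with 4 genes higher and 3 lower, beside 21.7% and 31.2%.

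The 20 kept neural progenitor genes had a median of 0.32 with Thoc2 siRNA. Of them 10 lay higher and 3 lower without overlap (50% and 15%, beside 26.1% and 20.9% of all genes). With Thoc5 siRNA the median was about 0, with 4 higher and 5 lower (20% and 25%, beside 21.7% and 31.2%). Only 13 of the 20 were well above background on all 6 arrays. Some, such as Fabp7 (on 1 NT array), were kept through the Thoc2 arrays alone, so the median and count with Thoc2 siRNA are no support. Dach1, a transcriptional cofactor, and Zic1, a zinc-finger factor of the neural plate, were well above background on 0 NT arrays and kept only through the Thoc2 arrays, so they had to be higher there; the bounds were at least 2.63-fold and 2.65-fold. Zic5 lay the other way, at -4.19 and -4.51 on the NT arrays and -5.01 and -5.97 on the Thoc2 arrays. It was at least 2.13-fold lower with Thoc5 siRNA (limma adjusted p = 0.112). Its probe was well above background on 1 Thoc2 array and 0 Thoc5 arrays and was kept through the NT arrays alone. Zic5 thus had to be high on the NT arrays, and its fall is no support. Vim, the intermediate filament protein vimentin, rose with Thoc5 siRNA in the fit with trend and robust variances (limma adjusted p = 0.0295). Its difference in the fit without a trend was 0.76 ± 0.14 (adjusted p = 0.112). Its arrays were 4.18 and 4.22 on the NT arrays, 4.46 and 4.60 on the Thoc2 arrays, and 4.94 and 4.98 on the Thoc5 arrays.

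The 8 kept genes of the ventral neural tube and Hedgehog list lay above NT in 8 of 8 with Thoc2 siRNA and in 4 of 8 with Thoc5 siRNA. Their medians were 0.46 and 0.34, beside 0.06 and -0.09 over all genes. Without overlap 2 lay higher and 0 lower with Thoc2 siRNA (25% and 0%, beside 26.1% and 20.9% of all genes). The counts with Thoc5 siRNA were 2 and 1 (25% and 12.5%, beside 21.7% and 31.2%). Nkx6-2, a homeobox gene of ventral progenitors, was at 4.55 and 4.25 on the NT arrays, 4.87 and 5.13 on the Thoc2 arrays, and 5.41 and 5.44 on the Thoc5 arrays. It rose with Thoc5 siRNA with trend and robust variances (limma adjusted p = 0.0297). In the fit without a trend its difference was 1.03 ± 0.18 (adjusted p = 0.111). The order NT, Thoc2, Thoc5 of Nkx6-2 was that of Insm1. Gli2, a transcription factor of the Hedgehog pathway, was at 0.08 ± 0.14 and -0.48 ± 0.14 (adjusted p = 0.815 and 0.184 in the fit without a trend). Shh, Nkx2-1, Olig1, Olig2, Dbx1, Dbx2 and Sim1 had no kept probe, so Nkx2-2 was measured without the ligand and without these neighbours of its domain.

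The 12 kept midbrain, hindbrain and dorsal genes had medians of 0.33 and -0.02. With Thoc2 siRNA 3 lay higher and 1 lower without overlap (25% and 8.33%, beside 26.1% and 20.9% of all genes). With Thoc5 siRNA 2 lay higher and 1 lower (16.7% and 8.33%, beside 21.7% and 31.2%). Olig3, a dorsal progenitor factor, had the largest difference with Thoc2 siRNA, 1.32 ± 0.66, and En2, of the midbrain and hindbrain border, the largest with Thoc5 siRNA, 0.78 ± 0.28 (limma adjusted p = 0.428 and 0.238). Fgf8, a signal from that border, was at -0.67 ± 0.16 with Thoc5 siRNA (adjusted p = 0.138). The 19 kept proneural and neuronal genes had medians of 0.09 and -0.15. With Thoc2 siRNA 3 lay higher and 4 lower without overlap (15.8% and 21.1%, beside 26.1% and 20.9% of all genes). With Thoc5 siRNA 3 lay higher and 8 lower (15.8% and 42.1%, beside 21.7% and 31.2%). Atoh1, a proneural factor, was at 1.67 ± 0.60 with Thoc2 siRNA, and Syp, a synaptic vesicle protein, at 2.36 ± 0.98 with Thoc5 siRNA (adjusted p = 0.328 and 0.289). Atoh1 was well above background on 1 NT array and 1 Thoc5 array. It was kept through the Thoc2 arrays alone and had to be high there, so its difference is no support. Dll3, a Notch ligand, was at 0.36 and 0.34 on the NT arrays, -0.42 and -0.64 on the Thoc2 arrays, and -1.07 and -0.53 on the Thoc5 arrays. It fell with Thoc5 siRNA in the fit with trend and robust variances (limma adjusted p = 0.0483). In the fit without a trend its difference was -1.15 ± 0.23 (adjusted p = 0.124).

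**Figure D5:**
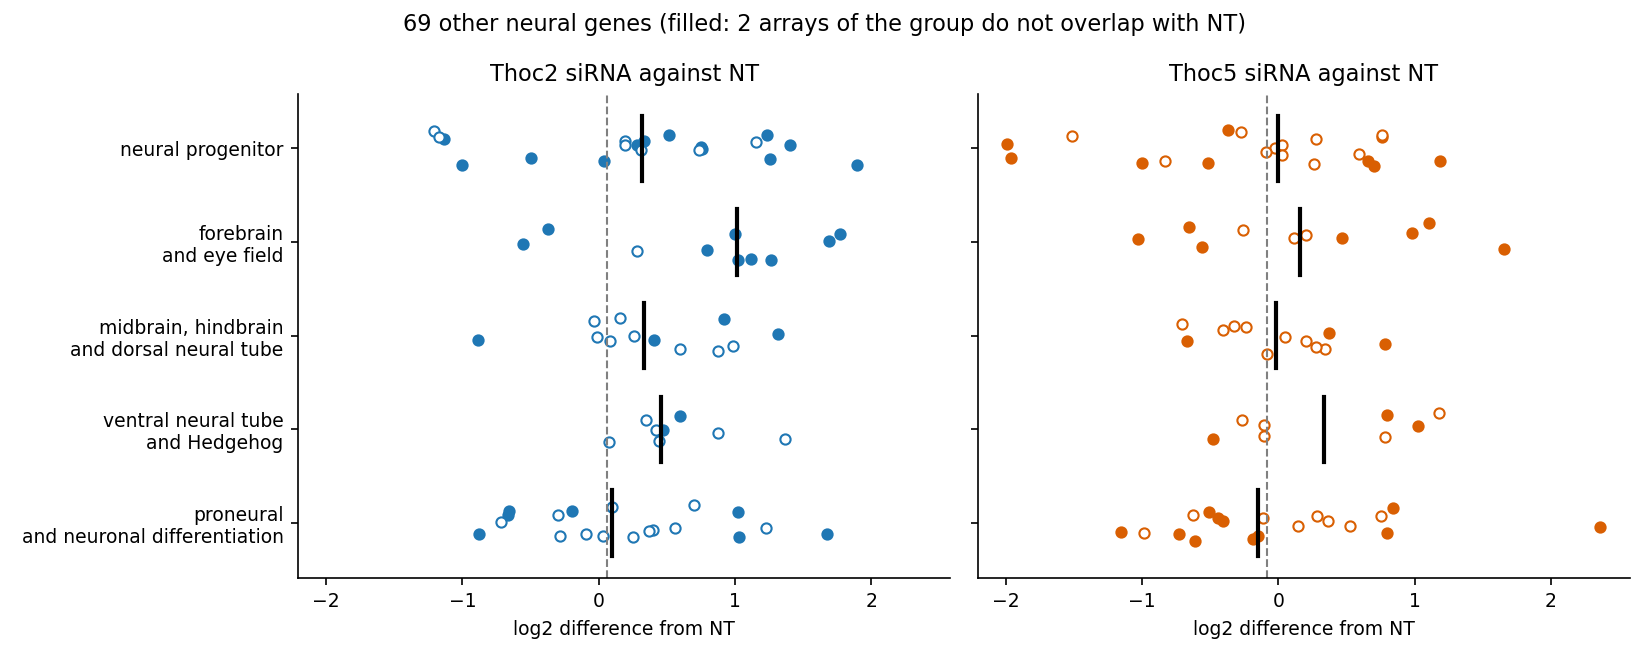
Log2 difference from NT (x axis) of each of 69 other neural genes, by list (y axis, points spread vertically for legibility), with Thoc2 siRNA (left) and Thoc5 siRNA (right); filled points are genes whose 2 arrays do not overlap with the 2 NT arrays, black bars are list medians and the dashed line is the median of all genes. With Thoc2 siRNA the forebrain and eye field median stands at 1.01, and with Thoc5 siRNA the list medians lie between -0.15 and 0.34.

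Markers of the stem cell state and of other cell types were read beside these lists. Of the 10 embryonic stem cell markers 0 lay above NT with either siRNA, with medians of -0.33 and -0.42, and 7 and 8 lay lower without overlap, beside 20.9% and 31.2% of all genes. Pou5f1 was at -0.42 ± 0.22 and -0.88 ± 0.22, Nanog at -0.07 ± 0.16 and -0.50 ± 0.16, and Sox2, which also serves neural progenitors and is in both lists, at -0.50 ± 0.19 and -0.52 ± 0.19 (limma adjusted p = 0.151 to 0.847). Tcl1, a cofactor of Akt, fell with Thoc5 siRNA with trend and robust variances (limma adjusted p = 0.0224). In the fit without a trend its difference was -1.09 ± 0.14 (adjusted p = 0.100). The 7 kept fibroblast and feeder markers of 10 summed to 7.03 and 7.43 on the NT arrays, 3.67 and 4.01 on the Thoc2 arrays, and 3.89 and 3.50 on the Thoc5 arrays, relative to the 75th percentile. Thy1, a surface glycoprotein, and Fn1, fibronectin, fell with Thoc5 siRNA with trend and robust variances (limma adjusted p = 0.0424 and 0.0383). In the fit without a trend their differences were -2.01 ± 0.39 and -0.87 ± 0.17 (adjusted p = 0.121 for each). Most of the summed signal is that of Fn1, and the list did not move as one. With Thoc2 siRNA 3 of the 7 lay above NT and 4 below, 2 higher and 3 lower without overlap (beside 26.1% and 20.9% of all genes). The 2 higher, named after their values were seen, were the collagen gene Col3a1 and Dcn, the proteoglycan decorin. Dcn was at 1.06 ± 0.52 (limma adjusted p = 0.421). Col3a1 was well above background on 0 NT arrays and was kept through the Thoc2 arrays alone. Because it had to be high there, its place in the count is no support. With Thoc5 siRNA 1 lay above and 6 below, 0 higher and 3 lower without overlap (beside 21.7% and 31.2%). The part of such cells in the differences of Skor1, Insm1 and Nkx2-2 was not tested.

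The 8 neural crest markers summed to 6.92 and 6.28 on the NT arrays, 7.10 and 9.605 on the Thoc2 arrays, and 8.08 and 6.35 on the Thoc5 arrays. Foxd3, a factor that neural crest and stem cells share, had the highest signal of that list on the NT arrays and lay within 0.26 of NT on average with both siRNAs. Of the 8, 7 lay above NT with Thoc2 siRNA, with 3 higher and 1 lower without overlap (37.5% and 12.5%, beside 26.1% and 20.9% of all genes). With Thoc5 siRNA 3 lay above NT, with 2 higher and 1 lower (25% and 12.5%, beside 21.7% and 31.2%). The 10 kept markers of the primitive streak and mesoderm (of 12) summed to 1.201 and 1.203, to 1.22 and 1.52, and to 1.08 and 1.25 in the same order of groups. With Thoc2 siRNA 7 of them lay above NT, 6 higher and 2 lower without overlap (60% and 20%, beside 26.1% and 20.9% of all genes). With Thoc5 siRNA 6 lay above, 3 higher and 3 lower (30% and 30%, beside 21.7% and 31.2%). Kdr, the VEGF receptor of vascular precursors, was at 1.20 ± 0.22 and 1.24 ± 0.22, and Lhx1 and Evx1, transcription factors of the streak, at 1.18 ± 0.45 and 1.08 ± 0.25 with Thoc2 siRNA (limma adjusted p = 0.220, 0.110, 0.347 and 0.234); these were named after their values were seen. The part of such cells in the differences of the 7 genes was not tested. Tbx6, of the paraxial mesoderm, was at -1.19 ± 0.39 and -0.94 ± 0.39 (limma adjusted p = 0.303 and 0.287), and Amn, of the primitive endoderm, at -1.31 ± 1.13 and -0.57 ± 1.13 (adjusted p = 0.624 and 0.827).

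Genes with the pattern most like each of the 7 over the 6 arrays were looked up by Pearson correlation among 8647 genes whose levels span at least 1 on the log2 scale. With 6 points, which share their arrays and fall into pairs, high values are common, so they are a description. Insm1 was followed most closely by Sik3, a kinase (r = 0.999), and Ccdc174 (0.997), both well above background on all arrays. Skor1 was followed by the phosphatase gene Ptpn4 (0.997) and by 9030407P20Rik (0.992), Nkx2-2 by Dusp6, a phosphatase that acts on ERK (0.995), and Six3 by Neurod2, a neuronal differentiation factor (0.983), and Dnase1 (0.979). Of these 9030407P20Rik was well above background on 3 arrays, Dnase1 on 2, and Six3 itself on the Thoc2 arrays alone. Their correlations thus rest in part on values not well above background. Sox1 was followed by the somatostatin receptor gene Sstr1 (0.999), which was well above background on 3 arrays, Pax6 by Nsg1, of neuronal endosomes (0.959), and Nes by Rprm (0.986). The other gene of the pair for Sox1, Nkx2-2, Pax6 and Nes carries no gene symbol in the files or the reference tables.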

How the data were processed

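Total RNA of J1 cells was read on 6 one-colour Agilent arrays. Per the file headers, the deposited scanner files hold for each spot the processed signal intensity (background subtracted, detrended), mean and background intensity and flags; the headers name Feature Extraction 9.5.3.1, the submitters' processing notes 11.0. A deposited series table holds log2 values with a median of 5.82 on each array and a Spearman correlation of 1 with the processed signal; how it was made is not given in the sources used here. The number of arrays limits the precision.

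Control spots and outlier-flagged spots were left out of the levels. A level is the log2 of the processed signal over the array's 75th percentile; spots of a probe were averaged. A probe was kept if both arrays of some group had 0.5 or more of its spots well above background, and the brightest kept probe stood for a gene. Of 41174 probes 22951 were named by accession, 124 by another accession, 6582 by current symbol and 3077 by synonym, through reference annotation of GRCm38.p6 used for names and promoters; 8440 kept the file's name. Probe positions are in mm7.

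Tests used limma 3.58.1 (lmFit, eBayes; R 4.3.3), two-sided, on all 6 arrays with 3 residual and 1.49 prior degrees of freedom, Benjamini-Hochberg adjusted over all genes of each of 3 comparisons. Every adjusted p is limma's. With 2 arrays against 2 the smallest p of an exact permutation test is 0.333. Errors are SEs of that fit, with n = 2 arrays per group, also where an adjusted p with trend and robust variances is given. The fit was tested on simulated data.

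The 7 genes, the 5 neural lists, the 6 marker lists and the alternatives were chosen with earlier results of these data known. Genes named were the 7, Thoc2 and Thoc5; from each neural list and knockdown the largest rise and largest fall among genes without overlap with NT; Pou5f1, Nanog and Sox2; of each other marker list the gene brightest with NT siRNA; for each of the 7 genes the 2 most correlated; and listed genes past 0.05 with a trend and robust variances. Lbx1, which that rule also names, is shown with Skor1, and the list genes without a kept probe were named after their absence was seen. Alternatives were other scalings, background corrections, filters, variances, blocks, probes and left-out arrays.

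Replicate numbers are shared by the groups. Deviations of same-numbered arrays correlated at -0.20 (NT and Thoc2), 0.14 (NT and Thoc5) and 0.22 (Thoc2 and Thoc5), so the numbers were not taken as pairs.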

Additional observations from a re-analysis of the deposited data

Results flagged for a closer look

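Among the other neural genes that were well above background on all 6 arrays, Notch1 lay barely above both NT arrays on both Thoc2 arrays. It lay below them on both Thoc5 arrays. Of all genes 26.1% lay higher without overlap with Thoc2 siRNA, and 31.2% lower with Thoc5 siRNA. It is named after its values were seen. Notch1, the receptor that holds neural progenitors back from differentiation, stood at -0.339 and -0.358 on the NT arrays, -0.286 and -0.332 on the Thoc2 arrays, and -0.657 and -0.777 on the Thoc5 arrays. Its differences were 0.0395 ± 0.137 and -0.368 ± 0.137 (limma adjusted p = 0.906 and 0.253). The first is smaller than its SE, so no rise with Thoc2 siRNA is read. The direct difference of Thoc5 from Thoc2 siRNA was -0.41 ± 0.14 and did not pass the threshold in limma (adjusted p = 0.512). Both comparisons use the same NT arrays.

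Sox9, a factor of neural progenitors and neural crest also named after its values were seen, and Rax, the eye field gene, were well above background on the NT and Thoc2 arrays and on 0 Thoc5 arrays. With Thoc5 siRNA they have only a bound, at least 2.93-fold lower than with Thoc2 siRNA for Sox9 and at least 3.45-fold for Rax. Groups of 2 arrays are too small for a check of single arrays that stand apart.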

How the results depend on the processing

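No gene passed the adjusted p in limma in any comparison with other scalings, background correction, the series table, slide as a random block, the replicate number as a block (0 genes in each comparison), or any array left out. The exceptions were the fit with an intensity trend and robust variances, with 4 genes for Thoc2 siRNA and 660 for Thoc5 siRNA against NT, and the filter on probes well above background on all 6 arrays, with 543 for Thoc5 siRNA (240 higher, 303 lower) of 15057 genes tested. The median of the 69 other neural genes for Thoc2 siRNA, 0.398, was 0.212 with quantile normalization, 0.206 in the series table, 0.0951 with each array centred on its median (all genes -0.24), 0.944 with normexp (all genes 0.288) and 0.220 within the shared slide, and 0.242 to 0.428 with 1 array left out. For Thoc5 siRNA, -0.0254, it was 0.890 with normexp (all genes 0.241), 0.455 within the shared slide, and -0.328 to 0.256 with 1 array left out, the ends being without NT replicate 2 and without Thoc5 replicate 1. For Thoc5 against Thoc2 siRNA, -0.221, it was 0.00155 with quantile normalization, 0.00746 in the series table, 0.170 with array medians (all genes 0.265) and -0.505 to -0.0262 with 1 array left out. The replicate block kept the medians at 0.398, -0.0254 and -0.221. The cause of these shifts was not tested.

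Of the 7 genes, Skor1, Insm1 and Nkx2-2 stayed above NT in both knockdowns under all settings run, with lowest values of 1.60, 0.999 and 0.776. Sox1 turned sign without NT replicate 2 for Thoc2 siRNA (-0.04), and for Thoc5 siRNA it lay above 0 in 4 of 18 settings (highest 0.95). For Thoc5 siRNA Pax6 turned to 0.0616 with normexp. Six3 with Thoc5 siRNA is not compared with NT, since neither was well above background. Nes turned to 0.10 within the slide and to 0.0225 without Thoc2 replicate 1 for Thoc2 siRNA. With Pax6 probes averaged the Thoc2 difference was -0.0978. Blocking on slide gave differences for Thoc2 and Thoc5 siRNA of 2.84 and 2.01 (Skor1), 1.30 and 2.22 (Insm1), 1.54 and 1.92 (Nkx2-2), 0.95 and 0.05 (Sox1), -0.54 and -0.47 (Pax6) and -0.11 and 0.24 (Nes), and 3.02 for Thoc2 siRNA (Six3). Signal near background limits Six3 and Nkx2-2 with NT siRNA most.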
